A study of Mus musculus with 10 samples.

Results

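The postsynaptic receptors, scaffolds and adhesion molecules described here are 37 genes of the receiving side of the synapse, chosen by name, with the transcript of the highest mean RNAseq count standing for each gene. Of the 37 genes, 29 had a listed transcript among the 13188 genes with listed counts, and 24 passed the treatment-blind filter of at least 3 CPM (reads scaled to library size), on average over 5 libraries, in RNAseq and in ribosome footprints (RF) on the coding sequence (CDS). No listed transcript was matched to Grin2a, Grik2, Grm3, Grm5, Gabra2, Gphn, Nlgn1 and Nrxn3, and their levels were not analysed here. Dlgap2, Homer2, Gria4, Camk2a and Cacng2 were listed but fell under the filter, and the only listed transcript of Camk2a is a fragment of 499 nucleotides. The cultures were primary neuron-glia cultures from the brain cortex of newborn (P0) FVB mice, grown for 7 days, with neither a transgene nor a sorted cell type. Untreated cultures 1, 2 and 3 received no KCl, and KCl cultures 4 and 5 were depolarized with 55 mM KCl for 3 h. All cultures were given cycloheximide for 7 min before lysis, and the lysate of each was divided into an RNAseq and an RF library, which made 10 libraries. The labels do not say whether the cultures came from separate litters, so that p-values measure only the spread between these cultures.

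Excitatory synapses hold glutamate receptors in a dense scaffold: the MAGUK proteins encoded by Dlg1 to Dlg4 bind receptor tails, the SAPAP proteins of the Dlgap genes link MAGUK proteins to the Shank proteins, and Homer proteins tie Shank to metabotropic receptors and the cytoskeleton. AMPA receptors (Gria genes) carry fast transmission, NMDA receptors (Grin genes) pass calcium, and kainate receptors (Grik genes) modulate transmission. At inhibitory synapses GABA-A receptor channels act beside neuroligin 2, and the metabotropic GABA-B receptor is made of the Gabbr1 and Gabbr2 subunits. Neuroligins are postsynaptic adhesion molecules whose partners across the cleft are the neurexins, and CaMKII is the kinase that responds to calcium entering the spine.

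RNAseq libraries held 3056286 to 3629959 counted reads and RF libraries 1463654 (untreated culture 3) to 7719915 (untreated culture 1), so that footprint values of untreated culture 3 and KCl culture 4 rest on the fewest reads. The depolarization-induced transcription factor Fos rose by 1.64 on the log2 scale in RNAseq (SE 0.18, adjusted p = 4.9e-11) and Junb rose by 1.08 (SE 0.18, adjusted p = 2.5e-06). Arc RNAseq had a log2 fold change of 1.00 (SE 0.39, adjusted p = 0.052), and Nr4a1, Npas4 and Egr1 had no listed transcript. The cultures held neurons among many glia: 10 neuron markers were tested, and the summed RNAseq level of the 11 listed neuron markers was 555 to 723 normalised CPM in untreated and 745 to 758 in KCl cultures, against 10897 to 11875 and 9855 to 9968 for 8 astrocyte markers. Map2 and Slc17a6 had no listed transcript, and no listed neuron marker was at 0 in RNAseq. Markers of microglia, the oligodendrocyte lineage, endothelial and mural cells and fibroblasts each had 1 tested gene that fell in RNAseq (of 6, 8, 2 and 3), and none of 3 genes of dividing cells was called in RNAseq. In RF, 3 microglia markers rose and 1 fell, 2 of the oligodendrocyte lineage rose, and 1 endothelial or mural marker fell. Of the fibroblast markers 1 rose and 1 fell in RF, and 1 gene of dividing cells rose. Of the neuron markers 1 of 10 rose in RNAseq and 3 of 10 rose in RF. Of the astrocyte markers 2 of 8 fell in RNAseq and 6 of 8 rose in RF. Over all tested transcripts 13.6% rose and 11.6% fell in RNAseq, and 17.9% rose and 16.3% fell in RF. The part of these marker changes in the values below was not tested. In these bulk libraries a change in the number of neurons and a change in RNA per neuron cannot be told apart. The reads of a member cannot be assigned to neurons or to glia either.

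The sequences around the start codon are shown for the members with the highest and the lowest translation efficiency (TE), the ratio of CDS footprint density to RNAseq density in untreated cultures, because that contrast carries the widest spread in these data. They come from the GRCm38 transcript sequences (GENCODE M21), run 5′ to 3′ with 12 bases before the start codon, and the capitals mark the start codon. The annotated 5′UTR of the Shank3 transcript is only 9 nucleotides long, and no context is shown for it. The first 4 sequences belong to receptor subunits with high TE and the last 3 to members with low TE.
Gabrb1: tcagagttaggaATGtgg
Grin2b: gacgagctgaagATGaag
Gria2: cttttcttggaaATGcaa
Gria3: aggcagaagaaaATGggg
Dlgap3: tttgctgaggccATGagg
Grik5: gaggggaggaagATGccg
Shank1: cgtggccccacgATGacc

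A purine stands 3 bases before the start codon in 20 of the 24 tested members, against 84.2% of all tested transcripts with a sequence. The base right after the start codon is a G in 6 of 24 members, against 50.5% of all, and 5 of 24 members have both features, against 42.7% of all. Among the sequences shown the purine is present in all 7, and the following G only in Gria3. The purine was thus shared by the members of high and low TE shown here.

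RNA levels of the members were modest. The untreated RNAseq level of the 24 tested members, in RPKM (reads scaled to the length of the transcript and to the reads counted in the library), had a median of 6.89 and spanned 1.65 to 29.8, against a median of 9.57 for all tested transcripts, and 15 of 24 members lay below that median. The scaffold Dlgap4 had the highest RNA level, 29.8 ± 3.41 RPKM (SD, n = 3), followed by Nlgn2 at 21.2 ± 1.68 and Dlg4, which encodes the scaffold PSD-95, at 20.7 ± 1.21. Grin2b, the NMDA receptor subunit of young neurons, had the lowest, 1.65 ± 0.75 RPKM, next to Gria3 at 1.80 ± 0.06 and Dlg2 at 1.9 ± 1.05. CDS footprint levels followed another order. Gabrb1 led with 60.3 ± 5.67 RPKM and Gria2, the AMPA receptor subunit that sets calcium permeability, came next with 58.8 ± 4.42, while Dlgap3 had 1.31 ± 0.54 and Shank1 1.87 ± 0.48 RPKM. Among genes with abundant RNA, Dlg4 had only 12.4 ± 1.5 and Nlgn2 14.9 ± 1.80 RPKM of footprints, below the all-transcript median of 17.7.

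The TE of the 24 members spanned a 77.9-fold range in untreated cultures, around a median (2.02) close to that of 14975 tested transcripts (1.93). The members were spread to the ends of the distribution: 9 lay above the upper quartile of all transcripts (3.08) and 7 below the lower quartile (1.2). The GABA-A receptor subunit gene Gabrb1 (chromosome 5, 71699932 to 72149037, plus strand, 9 exons) had the highest TE, with 20.9, 35.3 and 19.8 in untreated cultures 1, 2 and 3 and 37.9 and 30.8 in KCl cultures 4 and 5. The values of Grin2b (chromosome 6, 135713233 to 136173125, minus strand) were 5.02, 11 and 11.8, then 6.36 and 8.81 with KCl. Those of Gria2 (chromosome 3, 80687795 to 80802835, minus strand) were 5.50, 9.14 and 9.36, then 5.02 and 8.14. Culture 1 was the lowest untreated culture for Grin2b and Gria2 but not for Gabrb1.

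Receptor subunits of ionotropic glutamate receptors mostly had a high TE. The 3 tested AMPA receptor genes lay at 8.00 ± 2.17 (Gria2), 7.30 ± 0.36 (Gria3) and 3.86 ± 0.41 (Gria1), and Grin1, the obligatory NMDA receptor subunit, at 5.03 ± 0.53 (SD, n = 3). The exception was Grik5 (chromosome 7, 25009849 to 25072292, minus strand), a kainate receptor subunit, with 0.375, 0.26 and 0.483 in the untreated cultures and 0.193 and 0.154 with KCl. The GABA-B receptor subunits Gabbr1 (2.2 ± 0.32) and Gabbr2 (1.81 ± 0.59) lay near the all-transcript median.

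Scaffold genes fell at both ends. Within the MAGUK family Dlg3 (5.27 ± 3.07) and Dlg2 (4.93 ± 1.84) were high, Dlg1 (2.28 ± 0.53) lay near the median and Dlg4 was low at 0.60 ± 0.09. Each untreated value of Dlg4, 0.588, 0.518 and 0.704, was below all untreated values of the other 3 MAGUK genes. The Shank genes were all low: Shank1 (chromosome 7, 44310253 to 44360572, plus strand) had the lowest TE of all tested members, with 0.298, 0.255 and 0.423 untreated and 0.249 and 0.298 with KCl. Shank3 (chromosome 15, 89499623 to 89560261, plus strand) had 0.596, 0.32 and 0.571, then 0.684 and 0.75 with KCl, and Shank2 had 0.81 ± 0.15. Homer3 was high (4.48 ± 1.74), and the SAPAP genes ran from 0.50 ± 0.12 (Dlgap3) to 1.84 ± 0.69 (Dlgap1). Among adhesion molecules Nlgn2 (0.71 ± 0.10) was lower in every culture than Nlgn3 (2.76 ± 0.46), and Nrxn2 had 1.37 ± 0.18. Camk2b, the tested CaMKII gene, had 1.48 ± 0.12.

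In the order of TE only 3 neighbours had untreated ranges that did not overlap: Gabrb1 and Grin2b, Gria1 and Nlgn3, and Nrxn2 and Shank2. All other neighbours overlapped, while members farther apart did not always overlap. Of the members below the filter, Gria4 had a mean TE of 12 from 5 to 12 RNAseq reads per untreated library and Homer2 0.17 from 2 to 21 CDS footprints.

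**Figure D1:**
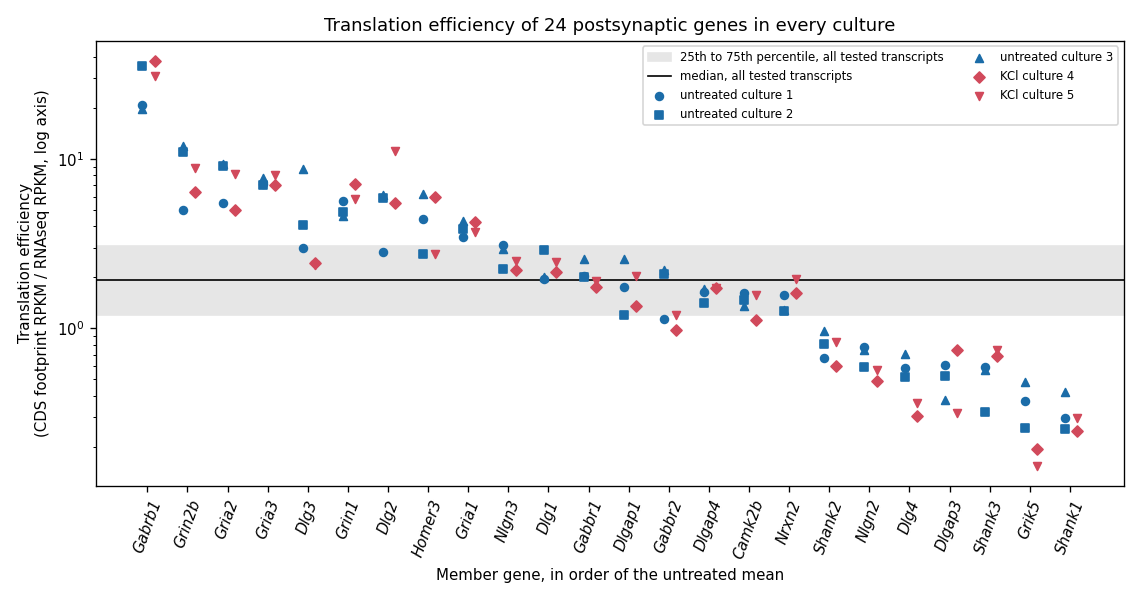
TE (CDS footprint RPKM over RNAseq RPKM, log axis) of the 24 tested members in each of 3 untreated cultures (blue) and 2 KCl cultures (red), with the median (line) and quartiles (grey band) of all tested transcripts. Gabrb1 stands above all other members in every culture, and the 7 genes from Shank2 to Shank1 lie below the grey band in all untreated cultures.

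The denominator of TE sets some of these values. RNAseq density over a whole transcript depends on the annotated 3′UTR, which is 12228 nucleotides long in Gabrb1 and 18865 in Grin2b. With RNAseq density taken over the CDS alone, the TE of Gabrb1 was 5.91 ± 3.64 (SD, n = 3), that of Grin2b 14.1 ± 8.04, of Gria2 10.4 ± 2.56 and of Gria3 7.78 ± 0.68. Thus Gabrb1 no longer led, while the AMPA and NMDA receptor genes kept values above the upper quartile of all transcripts by that measure (4.05). At the low end Shank1 (0.40 ± 0.09), Grik5 (0.39 ± 0.13), Dlg4 (0.61 ± 0.10), Nlgn2 (0.62 ± 0.05) and Dlgap3 (0.67 ± 0.10) stayed below the lower quartile of 1.42. Shank2 moved to 2.73 ± 0.81, past the all-transcript median of 2.38, and Shank3 moved to 1.41 ± 0.27, just under that lower quartile. Dlg3 had only 12, 2 and 1 RNAseq reads on its CDS in the untreated cultures, so that its CDS-based value of 52.6 ± 62.1 has no use. The annotated isoform matters as well: the other listed Gria2 transcript, with a CDS of the same length, had a TE of 20.4 against 8.00. The other listed Dlg2 transcripts had a TE of 3.33, 2.22 and 3.28 against 4.93. With CDS-only RNAseq density the TE of Dlg2 was 3.96 ± 2.36, under the upper quartile of 4.05.

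Most members of low TE had GC-rich coding sequences. CDS GC content was 44.6% in Gria2, 45.5% in Gria3 and 48.8% in Gabrb1, and 61.6% in Grik5, 62.7% in Nlgn2, 63.6% in Shank1, 64.6% in Shank3 and 64.8% in Dlgap3. Homer3 (60.4%, TE 4.48) had a high TE at a high GC content. Across the 24 genes of the same libraries, the Spearman correlation of TE and CDS GC content was -0.83, against -0.31 over all tested transcripts. With the CDS-based TE it was -0.72, against -0.07, and the value of Dlg3 was kept in it. Genes are not independent replicates, and these correlations are a description only. Lengths of the 5′UTR were less related to TE (Spearman correlation 0.21). The members had longer 5′UTRs than the rest, with a median of 299 nucleotides against 182, and 18 of 24 held at least 1 ATG upstream of the CDS, against 54.5% of all tested transcripts.

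**Figure D2:**
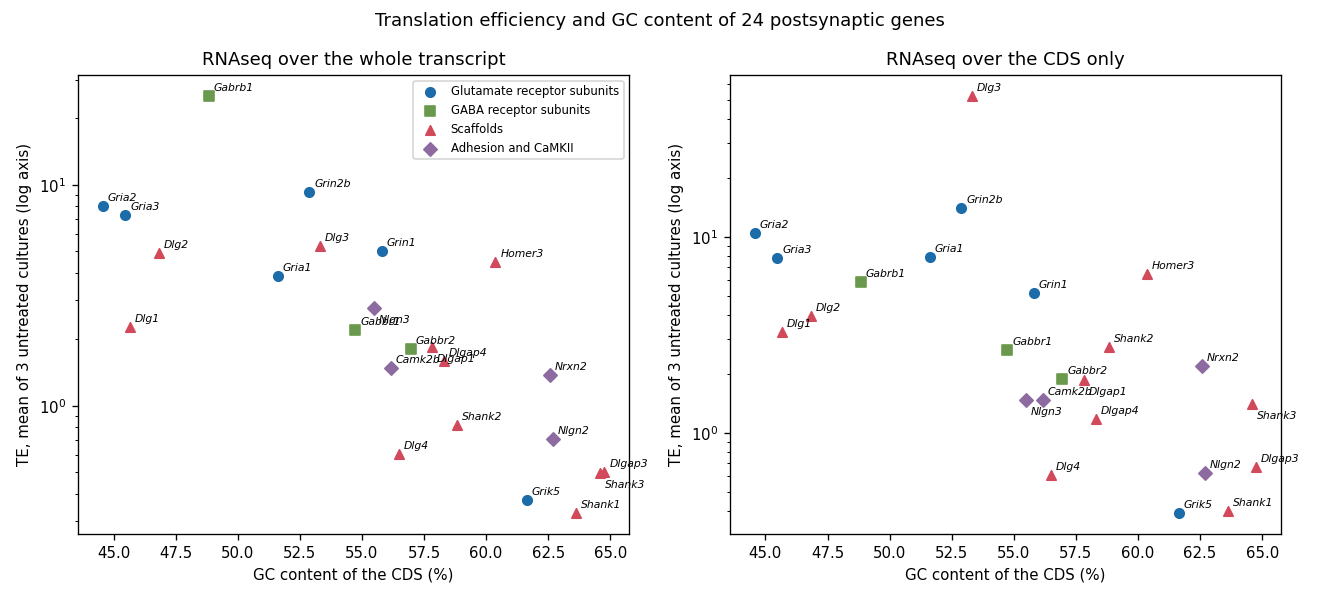
Mean TE in untreated cultures (log axis, n = 3) against GC content of the CDS for the 24 tested members, with RNAseq density over the whole transcript (left) or over the CDS only (right). Most receptor subunits lie at the upper left, and Shank1, Grik5, Nlgn2 and Dlgap3 at the lower right of both panels. The right panel includes Dlg3, whose CDS-based value has no use.

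KCl against untreated cultures asked whether depolarization changes the RNA, the footprints or the TE of these genes. Most members did not pass the test. In RNAseq 2 of 24 rose and none fell (adjusted p under 0.05), against 25.2% of all tested transcripts called (13.6% higher and 11.6% lower). In RF 4 rose and 1 fell, against 34.2% of all (17.9% higher and 16.3% lower). In TE none of the 24 passed by edgeR, against 3.08% of all (0.845% higher and 2.23% lower). None of the 19 to which DESeq2 gave an adjusted p passed by it. Of all 15272 transcripts, DESeq2 called 37 higher and 135 lower in TE. At an unadjusted p under 0.05 by edgeR, 4 members were higher and 3 lower in TE, 7 in all, against 14.5% of all transcripts (6.4% higher and 8.05% lower). The median log2 fold change of the members was 0.06 in RNAseq, -0.04 in RF and -0.10 in TE, and of all tested transcripts -0.01, -0.01 and 0.01. The median size of the change, without sign, was 0.18 in RNAseq and 0.20 in RF for the members, and 0.33 and 0.35 for all transcripts. The 95% interval of the log2 fold change lay within 1 of no change for 20 of 24 members in RNAseq, 19 in RF and 15 in TE. For the other members a change of that size was not outside the interval. On simulated counts, whose spread was not fitted to these data, the TE test recovered only 47.5% of log2 changes of 1.5. With library totals in place of TMM the median of all transcripts moved to -0.14 in RNAseq and -0.18 in RF, and changes are given relative to the TMM scale.

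**Figure D3:**
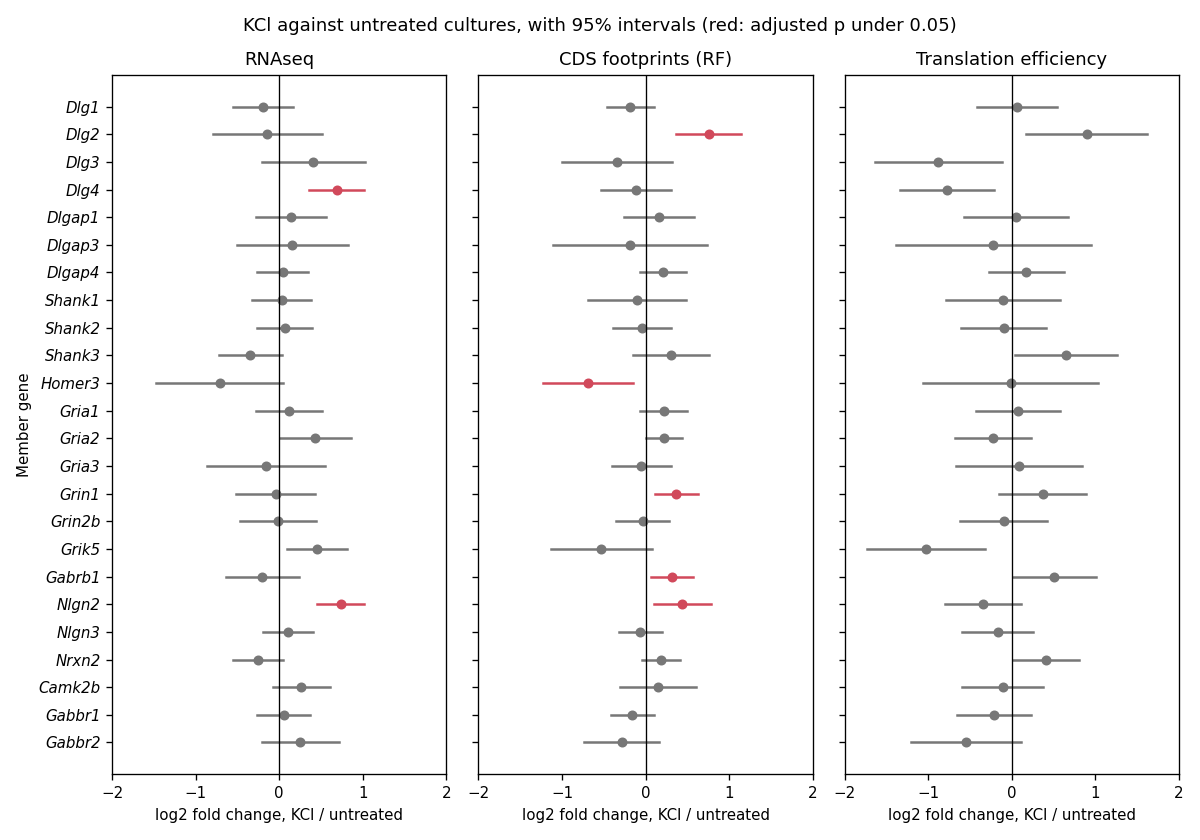
Log2 fold change of KCl over untreated cultures for the 24 tested members in RNAseq, CDS footprints and TE, with points for the estimate and lines for its 95% interval (red where the adjusted p is under 0.05). Dlg4 and Nlgn2 lie to the right in RNAseq, and Dlg2, Grin1, Gabrb1 and Nlgn2 to the right and Homer3 to the left in RF.

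Among the MAGUK scaffolds, Dlg4 (chromosome 11, 70029525 to 70045140, plus strand, 19 exons) rose in RNAseq without more footprints. Its RNAseq level was 59.7, 58.0 and 54.2 normalised CPM (CPM of the TMM-scaled library) in untreated cultures 1, 2 and 3 and 103 and 82.1 in KCl cultures 4 and 5. Both KCl values lay above all untreated values, as they did for 24.9% of all transcripts. The log2 fold change was 0.69 (SE 0.17, adjusted p = 0.0011), and without KCl culture 4 it was 0.52 with an adjusted p of 0.097. CDS footprints of Dlg4 were 26.7, 22.3 and 29.1 normalised CPM untreated and 24 and 23 with KCl, overlapping groups with a log2 fold change of -0.12 (SE 0.21, adjusted p = 0.71). The TE difference was -0.77 on the log2 scale (SE 0.29, unadjusted p = 0.0067, adjusted p = 0.12) and did not pass. All 3 listed Dlg4 transcripts gave like values, and isoforms share their reads.

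Dlg2, which encodes the scaffold PSD-93, moved in the other readout. Its CDS footprints were 23.4, 18.6 and 23.3 normalised CPM untreated and 33.5 and 38.0 with KCl, a log2 fold change of 0.76 (SE 0.20, adjusted p = 0.0019). The KCl values lay above all untreated values. Its RNAseq level was low and scattered, 23.5, 9.25 and 10.8 untreated and 17.0 and 9.60 with KCl, with a log2 fold change of -0.14 (SE 0.32, adjusted p = 0.80). The rise in footprints did not pass without KCl culture 5 (0.64, adjusted p = 0.13), and the TE difference of 0.89 (SE 0.37, adjusted p = 0.19) did not pass. That difference was 0.43 without untreated culture 1, 0.38 without KCl culture 5 and 1.38 without KCl culture 4. Dlg3 had a TE difference of -0.88 (SE 0.39, adjusted p = 0.23), which was -0.48 without untreated culture 3, and its footprints passed as lower only without untreated culture 2 (-0.59, adjusted p = 0.023), against -0.35 with all cultures. Dlg1 had -0.19 in RNAseq and -0.18 in RF (adjusted p = 0.48 and 0.34), and its footprints passed as lower only with library totals (-0.35, adjusted p = 0.047).

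The SAPAP and Shank scaffolds gave no call. The 3 tested SAPAP genes had log2 fold changes of 0.04 to 0.16 in RNAseq and -0.19 to 0.21 in RF. Dlgap4 CDS footprints were 66.5, 67.0 and 67.7 normalised CPM untreated and 78.0 and 77.2 with KCl, groups that did not overlap, with a log2 fold change of 0.21 (SE 0.14, adjusted p = 0.24). Shank1 and Shank2 lay within 0.11 of no change in all readouts. Shank3 RNAseq was lower in both KCl cultures, with 48.9, 63.5 and 51.8 normalised CPM untreated and 44.3 and 41.8 with KCl, while its footprints were 22.2, 15.0 and 22.6 untreated and 23.3 and 24.1 with KCl. None of these passed, including the TE difference of Shank3 (0.65, SE 0.31, unadjusted p = 0.037, adjusted p = 0.30), which was 0.30 without untreated culture 2.

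Homer3, an adaptor between Shank and group I metabotropic receptors, was the only member called lower. Its CDS footprints were 16.3, 19.1 and 24 normalised CPM untreated and 15.3 and 9.42 with KCl, a log2 fold change of -0.69 (SE 0.27, adjusted p = 0.042). The groups did not overlap, but KCl culture 4 lay close to untreated culture 1. These values rest on 21 and 25 CDS footprints in the KCl libraries. Without KCl culture 5 the value was -0.30 (adjusted p = 0.65), without untreated culture 3 -0.60 (adjusted p = 0.095), and DESeq2 gave an adjusted p of 0.17. Homer3 RNAseq differed by -0.71 (SE 0.38, adjusted p = 0.17) on 16 to 49 reads per library, and its TE by -0.01 (SE 0.53).

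Of the glutamate receptor genes only Grin1 (chromosome 2, 25291181 to 25319187, minus strand, 19 exons) passed. Grin1 CDS footprints were 90.9, 77.1 and 102 normalised CPM untreated and 116 and 112 with KCl, a log2 fold change of 0.37 (SE 0.13, adjusted p = 0.022). Its RNAseq level overlapped between groups (22.6, 22.6 and 31.0 against 22.5 and 26.6, log2 fold change -0.04, adjusted p = 0.92). The call on Grin1 was lost without untreated culture 2 (0.27, adjusted p = 0.079) and without KCl culture 4 (0.34, adjusted p = 0.14) or 5 (0.39, adjusted p = 0.14), and with DESeq2 (adjusted p = 0.091). Grin2b did not differ in RNAseq over all regions (-0.01, SE 0.23) or in RF (-0.03, SE 0.16). With RNAseq reads on the CDS only, Grin2b had a log2 fold change of 1.05 (SE 0.37, adjusted p = 0.042), on 36, 10 and 11 such reads in the untreated libraries.

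The AMPA receptor genes had log2 fold changes of -0.22 to 0.43 over the 3 readouts, and none passed. Gria2 had 41.4, 25.5 and 28.3 normalised CPM of RNAseq untreated and 51.3 and 35.0 with KCl (0.43, SE 0.21, adjusted p = 0.13), and it passed only without untreated culture 1 (0.68, adjusted p = 0.013) or KCl culture 5 (0.69, adjusted p = 0.0496). Gria2 CDS footprints were 155, 154 and 181 untreated and 177 and 196 with KCl (0.22, SE 0.11, adjusted p = 0.11), and without untreated culture 3 the log2 fold change was 0.28 with an adjusted p of 0.0499. The groups overlapped in both readouts. Gria1 and Gria3 had RNAseq changes of 0.12 and -0.16 and RF changes of 0.21 and -0.05.

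Grik5 had the lowest p of the members in TE. Its RNAseq level was 49.5, 48.8 and 48.5 normalised CPM untreated and 55.4 and 77.7 with KCl (log2 fold change 0.45, SE 0.18, adjusted p = 0.057). Its CDS footprints were 15.0, 9.95 and 18.9 untreated and 8.74 and 9.79 with KCl (-0.53, SE 0.30, adjusted p = 0.18). RNAseq lay above and RF below all untreated values in both KCl cultures. The ratio of the normalised levels was 0.303, 0.204 and 0.391 untreated and 0.158 and 0.126 with KCl, a TE difference of -1.03 (SE 0.36, 95% interval -1.73 to -0.33, unadjusted p = 0.0041, adjusted p = 0.095). Grik5 passed in TE and in RF only without untreated culture 2 (-1.28, adjusted p = 0.019, and -0.75, adjusted p = 0.029), and in RNAseq without untreated culture 1 (0.46, adjusted p = 0.048) or KCl culture 4 (0.67, adjusted p = 0.025) or with RNAseq reads on the CDS only (0.54, adjusted p = 0.042). The KCl values of RF rest on 12 and 26 reads.

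Among the GABA receptor genes Gabrb1 CDS footprints were 97.1, 90.5 and 82.3 normalised CPM untreated and 121 and 108 with KCl, a log2 fold change of 0.31 (SE 0.13, adjusted p = 0.046). The groups did not overlap, as the KCl values lay above the untreated ones for 27.8% of all transcripts. RNAseq of Gabrb1 was 43.3, 24.6 and 38.7 untreated and 29.4 and 32.2 with KCl (-0.20, SE 0.22, adjusted p = 0.55), and the TE difference was 0.51 (SE 0.25, adjusted p = 0.33). With RNAseq reads on the CDS only that difference was 0.06 (adjusted p = 0.97). The RF call stood close to the threshold: the adjusted p was 0.055 without untreated culture 2, 0.1 without untreated culture 3, 0.31 without KCl culture 4, 0.11 without KCl culture 5 and 0.12 with DESeq2. Gabbr1 and Gabbr2 had RF changes of -0.16 and -0.29 that did not pass, although Gabbr1 passed as lower with library totals (-0.32, adjusted p = 0.044). Gabbr2 footprints lay below the untreated values in both KCl cultures, and its RNAseq passed as higher only without untreated culture 1 (0.64, adjusted p = 0.031), against 0.25 with all cultures.

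Nlgn2 (chromosome 11, 69823122 to 69837784, minus strand, 8 exons), the neuroligin of inhibitory synapses, was the only member called in both RNAseq and RF. Its RNAseq level was 108, 127 and 128 normalised CPM untreated and 186 and 216 with KCl, a log2 fold change of 0.73 (SE 0.14, adjusted p = 4.4e-05). The lowest KCl value lay well above the highest untreated value, and the call held under every alternative run. Nlgn2 CDS footprints were 39.4, 33.8 and 44.4 untreated and 43.0 and 58.0 with KCl, overlapping groups with a log2 fold change of 0.44 (SE 0.17, adjusted p = 0.036). This call was lost without untreated culture 1 (0.49, adjusted p = 0.055), untreated culture 2 (0.36, adjusted p = 0.057) or KCl culture 5 (0.17, adjusted p = 0.72), and with DESeq2 (adjusted p = 0.17). The TE difference was -0.35 (SE 0.23, adjusted p = 0.52). Nlgn3 differed by 0.11 in RNAseq and -0.06 in RF, Nrxn2 by -0.25 and 0.18, and Camk2b by 0.27 and 0.15, none of which passed.

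Over all members, the KCl groups lay above the untreated ones for 4 of 24 in RNAseq (24.9% of all transcripts), 5 in RF (27.8%) and 4 in TE (14.7%), and below them for 4 (24.5%), 3 (28.0%) and 4 (16.6%).

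**Figure D4:**
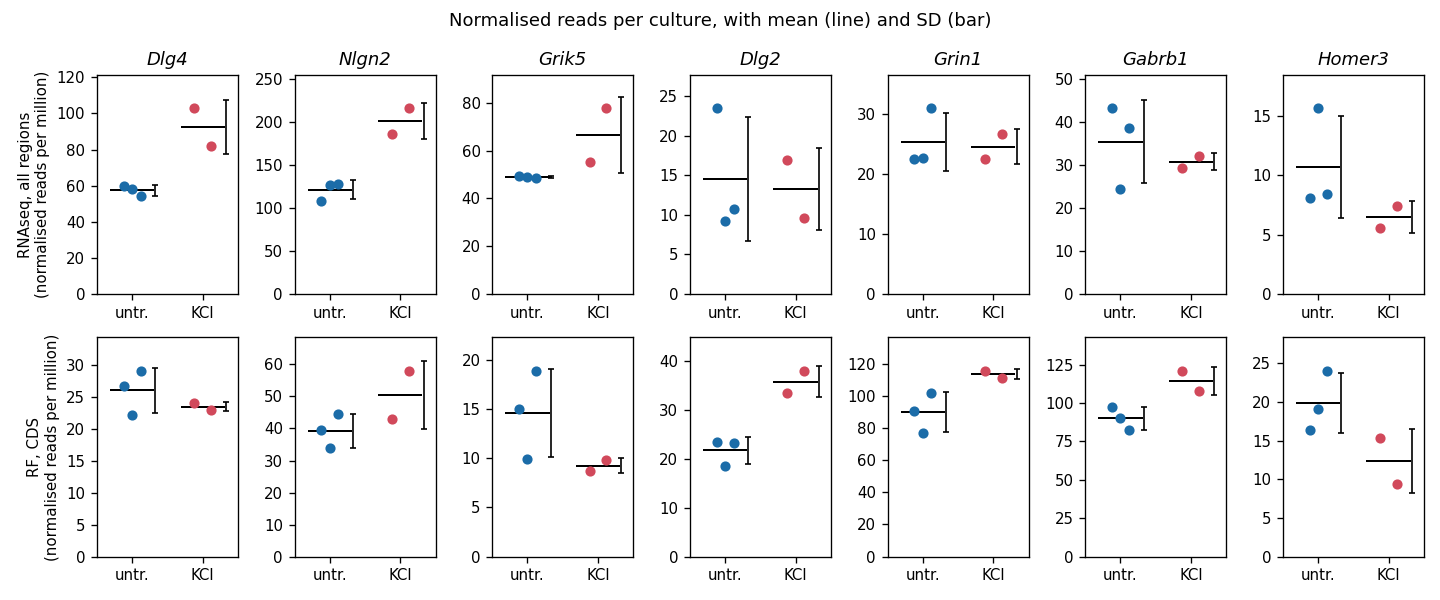
Normalised CPM in untreated (blue, n = 3) and KCl (red, n = 2) cultures for the 6 members called in RNAseq or RF and for Grik5, with RNAseq in the upper and CDS footprints in the lower row, the mean as a line and the SD as a bar, and axes starting at 0. In the upper row the KCl values of Dlg4, Nlgn2 and Grik5 lie above and those of Homer3 below all untreated values, and in the lower row those of Dlg2, Grin1 and Gabrb1 lie above and those of Homer3 and Grik5 below.

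A list of 76 further postsynaptic genes held other receptor subunits, adaptors and adhesion molecules, of which 66 were listed and 52 tested. In RNAseq 4 of 52 rose and 3 fell. Homer1, the activity-regulated relative of Homer3, rose by 1.38 (SE 0.22, adjusted p = 1.7e-06), followed by the synapse organizers Lrrtm1 (1.02) and Slitrk1 (0.98) and by Cyfip2 (0.39). Baiap2, a regulator of spine actin, had -1.22 (adjusted p = 1.8e-06) and Sorbs2 -0.91 (adjusted p = 7.6e-07). Grin2d had -1.33 (SE 0.51, adjusted p = 0.047) at low levels, 6.18, 7.02 and 5.38 normalised CPM untreated and 2.08 and 2.79 with KCl. In RF 6 rose and 6 fell, with the largest rises in Lrrtm1 (0.99), Nptxr (0.76), Lin7c (0.68) and Ptprd (0.44) and the largest falls in Abhd17a (-1.73), Cacng5 (-0.77), Sorbs2 (-0.70) and the glycine receptor subunit Glrb (-0.68). In TE the pentraxin receptor Nptxr (1.09, SE 0.31, adjusted p = 0.02) and the MAGUK partner Lin7c (0.69, SE 0.20, adjusted p = 0.031) rose, and the depalmitoylase Abhd17a fell (-1.52, SE 0.40, adjusted p = 0.009). The shares called were 13.5% in RNAseq, 23.1% in RF and 5.77% in TE, against 25.2%, 34.2% and 3.08% of all transcripts, and the medians were 0.07, 0.04 and -0.01.

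Footprints also lay on the annotated 5′UTR of some members. Of the footprints on 5′UTR and CDS over the 5 RF libraries, the median share on the 5′UTR was 5.33% for the 23 tested members with a 5′UTR of at least 50 nucleotides, against 5.09% for all such transcripts. Nlgn2 had 631 footprints on its 5′UTR and 780 on its CDS, a share of 44.7%, and Dlgap3 had 42 and 87, a share of 32.6%. Cacng2, an AMPA receptor auxiliary subunit under the filter, had 33 and 44, a share of 42.9%. Shares over 30% were found in 2 of 23 tested members and in 6.14% of all transcripts. By density per nucleotide the 5′UTR exceeded the CDS in 4 members, against 19.0% of all. The share of Nlgn2 was 44.1%, 38.3% and 44.0% in untreated and 53.5% and 49.7% in KCl cultures, higher in both KCl cultures than in any untreated culture, and this difference was not tested. The 5′UTR of 976 nucleotides held 35 RNAseq reads over 5 libraries, against 1106 on the CDS, and the other listed Nlgn2 transcript, with a 5′UTR of 411 nucleotides, had 122 footprints and a share of 13.5%. The other listed Dlgap3 transcript, with a 5′UTR of 619 nucleotides, had 28 footprints on it and a share of 24.3%, under 30%. The values of both genes thus depend on the annotated 5′ end, and Dlgap3 had no RNAseq read on its 5′UTR at all.

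**Figure D5:**
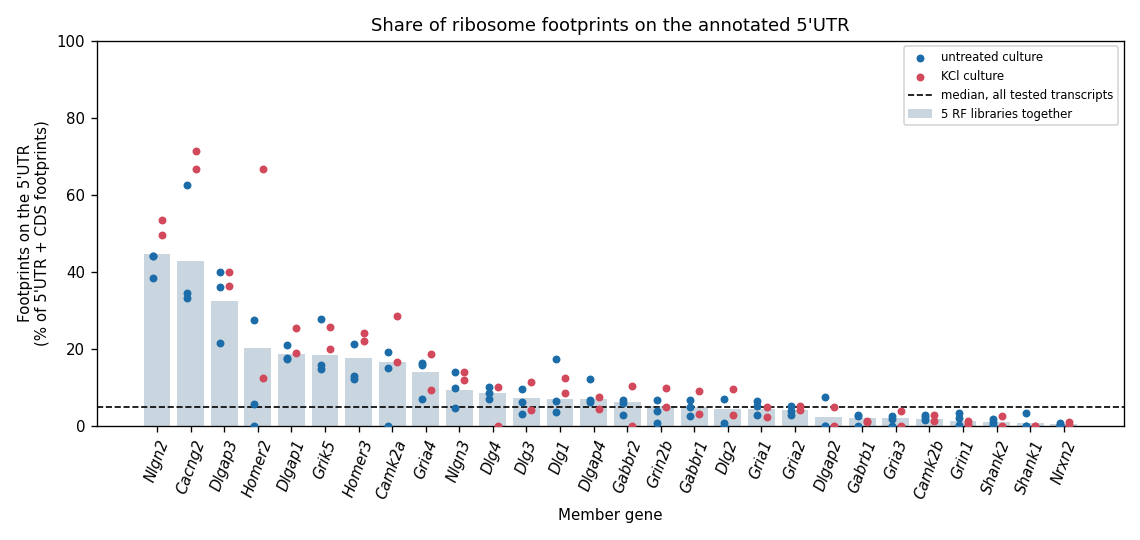
Share of footprints on the 5′UTR, in percent of 5′UTR and CDS footprints, for the 28 listed members with a 5′UTR of at least 50 nucleotides, as bars over 5 RF libraries and as points for untreated (blue) and KCl (red) cultures, with the median of all tested transcripts as a dashed line. Nlgn2, Cacng2 and Dlgap3 stand above 30%, and the points of Homer2, Camk2a and Cacng2 rest on few reads.

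The ATG triplets upstream of the CDS are shown for Nlgn2 and Dlgap3, the tested members with the largest share of 5′UTR footprints, a choice made after the shares were seen. Each line holds 9 bases before the ATG, the ATG in capitals and the 6 bases after it, from the GRCm38 transcript sequence. The files give reads per region and not per position, so that no footprint can be placed on any of these triplets.
Nlgn2, position 56 of the transcript: cgagctgggATGgacgcg
Nlgn2, position 706: gagccctggATGgaggca
Nlgn2, position 797: accccctccATGgagaga
Dlgap3, position 131: gccggcaccATGtaaccc
Dlgap3, position 229: acatcaaggATGggacac
Dlgap3, position 243: acaccccggATGgaggtt
Dlgap3, position 275: cccaacaatATGaagagc
In Nlgn2 these triplets open reading frames of 20, 8 and 11 codons that end within the 5′UTR. In Dlgap3 the frame at position 229 holds 23 codons and ends within the CDS in another frame, and the others hold 1, 11 and 5 codons and end before it.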

How the data were processed

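RNAseq and RF were measured in 3 untreated and 2 KCl cultures. Reads were trimmed by the authors (Trimmomatic 0.32), freed of rRNA by STAR and aligned with Bowtie2 2.2.2 to an mm10 transcriptome, with multi-mapped reads retained. The deposited values are raw counts per transcript region (bedtools 2.20.1), without normalization. A KCl replicate that the authors dropped for library size was not used here. Region letters a, b and d were read as 5′UTR, CDS and 3′UTR from their relation to annotated lengths, and the letter c stays unnamed. Of 22534 listed transcripts, 22177 (98.4%) were matched to GENCODE M21 (GRCm38). All lengths used in RPKM, TE and 5′UTR densities come from GENCODE M21, matched by transcript identifier. The authors counted reads on transcripts of an Ensembl release, whose models may differ. The other listed Shank3 transcript has no CDS in GENCODE M21, though it had enough CDS footprints to be tested. Isoforms share reads: 93.6% of 2207 isoform pairs of equal CDS length and at least 200 footprints had identical RF counts. Library totals therefore hold reads more than once, and paralogs may share reads too.

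RNAseq counts were the reads on all regions, and RF counts those on the CDS. The 15272 transcripts with a mean of at least 3 CPM in both assays were fitted with edgeR 4.0.16 under R 4.3.3 (robust quasi-likelihood test, TMM within the assay, Benjamini-Hochberg adjustment) and called at an adjusted p under 0.05. TE changes were the assay by treatment interaction, blocked by culture. RNAseq and RF libraries of a culture were paired because they came from the same lysate, and the correlation of their deviations from the group means was -0.05 to 0.02. The SE, the log2 fold change over the square root of F, is an approximation. The fits were tested on simulated counts in which 200 of 15272 transcripts changed by 1.5 on the log2 scale. Of these changes 93.5% were recovered in RNAseq, 89% in RF and 47.5% in TE. False calls made up 5.56%, 5.32% and 5.94% of all calls. The simulated counts had the same spread between replicates (dispersion) for every transcript and no culture effect. For the TE test the change was placed in RF only. That spread was not fitted to these data, so recovery in the real libraries may differ. The removal of footprints around start and stop codons, part of the paper's methods, could not be repeated from region counts, and the study's resampled t statistic was not used.

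Members, roles and lists were chosen with earlier results of these data known. Values per culture are given for members with an adjusted p under 0.05, for the 3 highest and the 3 lowest baseline TE values, and where a role needs them. Of the further postsynaptic genes at most 4 per direction and readout are named, by size of change. The alternatives were DESeq2 1.42.0, library totals, other filters, 1 transcript per gene, gene sums, a single fit, CDS-only RNAseq, no block, and leaving out each culture.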

Additional observations from a re-analysis of the deposited data

Results flagged for a closer look

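Some members had more than 3 footprints, the limit that a count of 0 allows, in regions that the comparisons do not use. Over the 5 RF libraries Nrxn2 had 74 reads and Gria2 32 reads on the region without a name. On the 3′UTR Gria2 had 10 reads, Dlg1 and Grin2b 6 each, Dlgap4 and Gabbr1 5 each, and Gria1 and Nlgn2 4 each. Each of these counts is small beside the CDS footprints of the same gene, which were 2725 for Nrxn2 and 3140 for Gria2. Over all transcripts, 0.19% to 0.23% of the reads of an RF library lay on the unnamed region and 0.37% to 0.71% on the 3′UTR. What the unnamed region holds was not tested. No member was tested for a culture far from the others, since the groups hold 3 and 2 cultures.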

How the results depend on the processing

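The count of members higher in RNAseq (2) was 4 with RNAseq reads on the CDS only and 4 at an unadjusted p, and 2 to 5 when 1 replicate was left out. None was lower under any alternative run. The counts of members higher and lower in RF (4 and 1) were 1 and 3 with library totals, 1 and 0 with DESeq2, 0 and 0 among the 9 members that pass the study's RPKM filter, 2 and 0 in a single fit of all 10 libraries, and 2 higher with reads summed over a gene's transcripts. Leaving out 1 replicate gave 0 to 4 higher and 0 to 3 lower members in RF. Library totals ended the RF calls of Grin1, Gabrb1 and Nlgn2 (log2 fold changes 0.20, 0.15 and 0.28, adjusted p = 0.23, 0.38 and 0.2), the single fit those of Homer3, Grin1 and Gabrb1 (adjusted p = 0.094, 0.081 and 0.13), gene sums those of Gabrb1 and Nlgn2 (0.087 and 0.066), the study's filter that of Nlgn2 (0.076), and no filter or 1 transcript per gene that of Gabrb1 (0.052 in each). Library totals also gave calls as lower in RF for Dlg1 and Gabbr1 (-0.35 and -0.32, adjusted p = 0.047 and 0.044). In TE no member was called except under an unadjusted p (4 higher, 3 lower) and for 0 to 1 lower members when a replicate was left out. Without the replicate block 0 members were higher and 0 lower in TE, as with it. The median baseline TE (2.02) was 2.42 with CDS-only RNAseq density, 1.59 among the members passing the study's filter, and between 1.81 and 2.22 with 1 untreated replicate left out. The relation of TE to CDS GC content and the Nlgn2 5′UTR share were given other settings only after the data were seen. A comparison of 2 KCl cultures with 3 untreated ones, and RF libraries of 1463654 and 1608235 reads limit what the TE test can show.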
